A study of Mus musculus with 6 samples.

Results

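Kidneys whose vessels had been clamped for 60 min were compared with kidneys clamped for 0 min, day by day. The members are the 4 arrays, of 6 in the series, whose labels give a clamp time of 60 or 0 min. They are 1 array of 60 min and 1 of 0 min from day 1, and 1 of each from day 3, and each 60 min array was set against the 0 min array of its own day. Both 45 min arrays were left out. All kidneys came from male mice of the FVB/N strain, aged 6 to 8 weeks and weighing 22 to 26 g. The pedicle of a single kidney was clamped, the clamp was released, and the kidney was collected at day 1 or day 3 after reperfusion. The 0 min kidneys went through the same protocol with no time under the clamp. No genotype or drug separated the groups. The labels do not say whether 1 array held RNA from 1 animal or a pool, and they mention no removal of the other kidney. Each clamp time and day has 1 array, so n = 2 per clamp time. The p-values rest on the spread between the 2 days, moderated with that of other genes, and on no replicate within a day.

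Ischemia-reperfusion deprives the kidney of oxygen and then returns it, and the proximal tubule, which relies on oxidative metabolism, is the classic site of damage. Surviving tubule cells are known to lose brush border and transporter expression, to switch on genes such as Havcr1 and Lcn2, and to re-enter the cell cycle to replace lost cells. Leukocytes enter over the following days, and where repair is incomplete matrix is laid down. The comparison asks how far a long clamp moved each of these programmes, and whether it moved them alike at day 1 and at day 3.

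The tissue labels held. Kap, an androgen-regulated protein of proximal tubule, lay at 49187 and 52548 at 0 min and 41457 and 38469.7 at 60 min, where pairs of intensities are given day 1 first throughout. The phosphate transporter Slc34a1 lay at 18632 and 24355 at 0 min and 13046 and 17153 at 60 min, and Umod, which encodes the uromodulin of the loop of Henle, at 35476 and 34923 at 0 min and 28950.1 and 27164 at 60 min. The endocytic receptor Lrp2 lay at 9491 or above, the loop transporter Slc12a1 at 9060.2 or above, the collecting duct water channel Aqp2 at 1717 or above, and Nphs1 of podocytes between 136 and 203. Median intensities of the 4 arrays were 81.1 to 93.6, and 18.4% to 20.4% of probe sets lay below 16. Log2 values of 2 arrays correlated at 0.931 to 0.979 across genes, which are not independent replicates. The 3' probe set of beta-actin exceeded the 5' one, which tracks RNA integrity, by a log2 of 1.12 and 0.77 on the 0 min arrays and 1.08 and 0.49 on the 60 min arrays. It was lower at day 3 than at day 1 in both groups, and its part in the results was not tested.

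Differences are given as log2(intensity + 16) at 60 min minus 0 min. The added 16 damps noise in dim probe sets and understates the change of dim genes. A gene is called higher or lower, and said to rise or fall, when its limma adjusted p over 12735 genes was under 0.05 in a fit with day as a block. By that rule 483 genes differed (3.79%), 386 higher (3.03%) and 97 lower (0.762%), and the lowest adjusted p was 0.0227. At an unadjusted p under 0.05 there were 3196 genes. In whole kidney, a change in the number of cells of a type and a change in RNA per cell cannot be told apart. The call rests on the spread that limma borrows across genes, since each gene alone has 1 residual degree of freedom. Values after ± are standard errors from this moderated fit and not the spread of a gene's own daily differences. With the day left out of the fit 1 gene was called, with all 6 arrays in the fit 0 (2718 genes at an unadjusted p under 0.05), and centring arrays on their medians called 992 higher and 762 lower.

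Higher on both days by any amount were 38.7% of genes, and lower 31.7%. Most called genes were large on both days, which follows largely from the rule for a call. A gap between the days counts as spread, and the smallest absolute mean difference among called genes was 0.966. At least 2-fold on both days were 383 genes higher (3.01%) and 91 lower (0.715%), and of these 348 and 82 were called. More genes passed 2-fold at day 3 than at day 1. There were 958 higher (7.52%) and 295 lower (2.32%) at day 3, against 555 (4.36%) and 216 (1.70%) at day 1. Of the genes 2-fold higher at day 1, 69.0% were so at day 3, and of those 2-fold higher at day 3, 40.0% were so at day 1. For lower genes the shares were 42.1% and 30.8%. The 2 daily differences share no array, and across genes they correlated at r = 0.656 (rho = 0.577). The median over all genes was 0.03, and median centring moved it to -0.076.

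**Figure D1:**
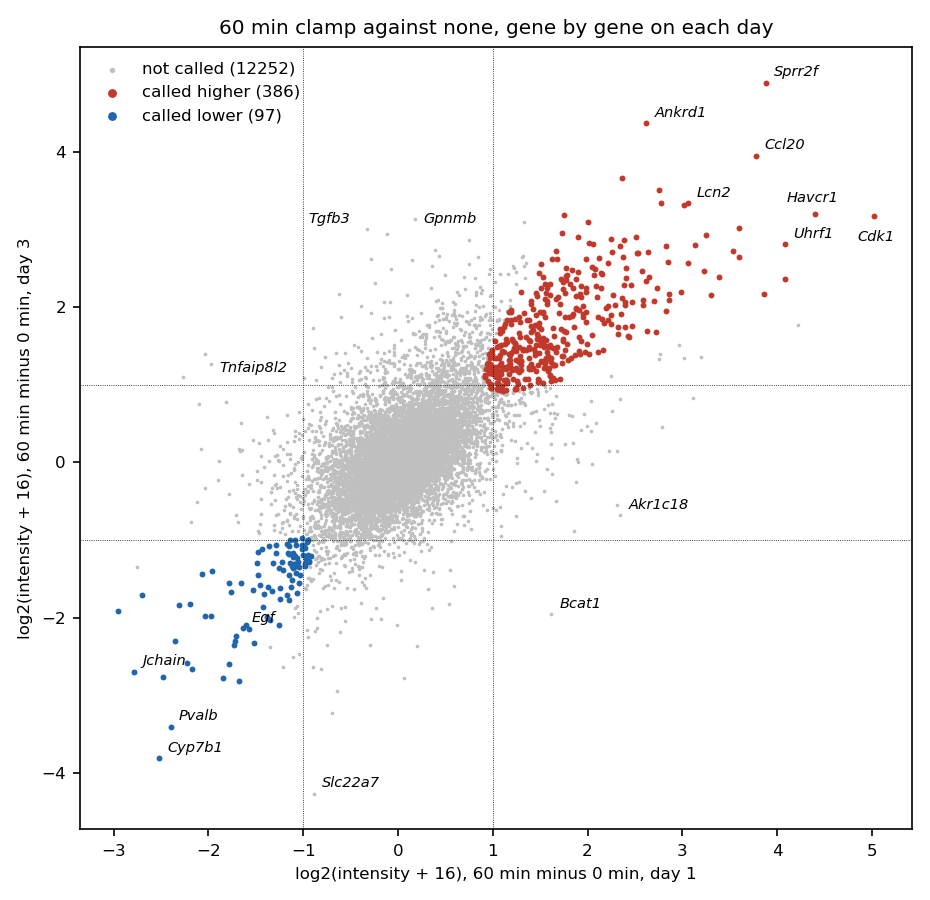
Each point is a gene (12735 tested), placed by its log2(intensity + 16) difference, 60 min minus 0 min, at day 1 (horizontal) and at day 3 (vertical), and dotted lines mark 2-fold. The 386 genes called higher and 97 called lower lie along the diagonal, while Tgfb3, Slc22a7 and Bcat1 lie far off it and were not called. A gap between the days counts as spread in the fit, and Tgfb3, Slc22a7 and Bcat1 were named for that gap. These places therefore follow largely from the rules for calling and naming.

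Most of the 12 genes with the largest rise on both days were markers of injured tubule or genes of dividing cells. Sprr2f, a small proline-rich protein of cornified epithelium, went from 50.2 to 961 on day 1 and from 58.9 to 2202 on day 3 (4.39 ± 0.28, limma adjusted p = 0.0227). Havcr1, the gene of the phagocytic receptor KIM-1, went from 599 to 13011 on day 1 and from 1242 to 11483 on day 3 (3.80 ± 0.32). Both 60 min arrays lay above both 0 min arrays for these genes, and the steps on each day were larger than any gap between the days. Genes chosen by the size of their difference are largely bound to separate so, and the share of all genes that do was not counted. Lcn2, the gene of the siderophore-binding protein NGAL, went from 1273 to 10746 on day 1 and from 640.1 to 6621 on day 3 (3.20 ± 0.16). The keratin gene Krt20 went from 66.7 to 988 on day 1 and from 49.8 to 514 on day 3 (3.31 ± 0.20). For Lcn2 and Krt20 the groups were again apart, and both the 0 min and the 60 min value were lower at day 3 than at day 1.

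Of 30 tubular injury markers tested, 20 rose and 0 fell, with a list median of 1.88 (1.74 at day 1 and 1.89 at day 3). Among all genes 3.03% were called higher. Ankrd1, a target of the stretch-sensitive YAP pathway, went from 71.0 to 519 on day 1 and from 76.3 to 1892 on day 3 (3.49 ± 0.44), and Ccn1, another YAP target, rose by 2.34. The annexin genes Anxa3 and Anxa2, membrane-binding proteins, rose by 2.67 and 1.88. Simple-epithelial keratins Krt18, Krt19 and Krt8 rose by 2.10, 2.05 and 1.41, and the intermediate filament gene Vim by 1.82. Timp1, an inhibitor of matrix proteases, rose by 2.59, S100a6 by 2.44, Lgals3 (galectin-3) by 2.15, Clu (clusterin) by 1.88 and the tight junction gene Cldn4 by 1.88. The other 10 markers were not called. Krt7 differed by 0.32 ± 0.19, and the glutathione transferase gene Gsta4 by -0.30 ± 0.18, and neither was called.

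**Figure D2:**
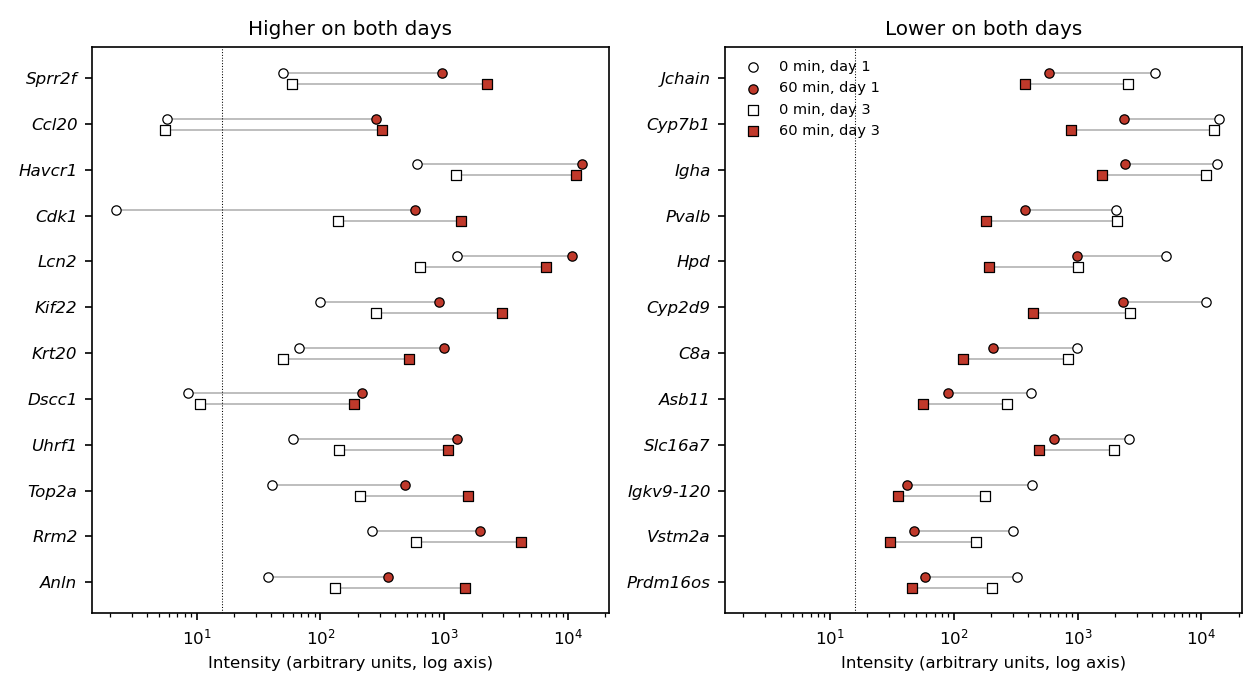
Intensities on the 4 arrays (log axis) of the 12 genes per direction with the largest smaller-of-both-days difference; open symbols are 0 min, filled 60 min, circles day 1 and squares day 3, and the dotted line marks the added 16. Hpd at 0 min on day 3 lies next to Hpd at 60 min on day 1, and Ccl20, Dscc1 and Cdk1 start below 16 on at least 1 control array.

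The cell cycle was the programme with the largest median. Of 27 mitosis genes tested, 23 rose (85.2%, against 3.03% of all genes) and 0 fell (list median 2.28). Of 28 genes of DNA replication and S phase 22 rose (78.6%) and 0 fell (1.95). Cdk1, the kinase that drives entry into mitosis, went from 2.22 to 577 on day 1 and from 139 to 1373 on day 3 (4.10 ± 0.47). Top2a, the topoisomerase that untangles chromosomes, went from 40.9 to 485 on day 1 and from 208 to 1546 on day 3 (2.97 ± 0.17). Kif22, a kinesin that moves chromosome arms, went from 98.5 to 914 on day 1 and from 280.3 to 2939.8 on day 3 (3.17 ± 0.16). Each of these was higher at day 3 than at day 1 both with and without the clamp. Anln, the cytokinesis protein anillin, went from 37.5 to 349 on day 1 and from 130.1 to 1465 on day 3 (3.06 ± 0.20), and Mki67, the proliferation antigen, from 29.6 to 535 on day 1 and from 244 to 1609 on day 3 (3.12 ± 0.27). The 0 min value of Cdk1 at day 1 lay under the added 16, so the size of that step depends on the constant.

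For the S phase genes the list median was higher at day 1 (2.04) than at day 3 (1.55), and for mitosis genes lower (2.05 and 2.44). This difference between days was not tested. Uhrf1, which carries DNA methylation through replication, went from 59.7 to 1267 on day 1 and from 141 to 1081 on day 3 (3.45 ± 0.34). Mcm6, a subunit of the replicative helicase, went from 85.9 to 1706 on day 1 and from 215 to 1173 on day 3 (3.22 ± 0.43), and its difference was 4.08 at day 1 and 2.36 at day 3. Another helicase subunit, Mcm5, rose by 2.73, Mcm3 by 2.48 and Mcm4 by 1.99. Rrm2, the ribonucleotide reductase subunit made for DNA synthesis, went from 259.9 to 1949.7 on day 1 and from 591 to 4161 on day 3 (2.81 ± 0.15). Dscc1, a factor that loads the replication clamp, went from 8.59 to 218 on day 1 and from 10.7 to 188 on day 3 (3.09 ± 0.17) from controls below 16. Among the members not called were Cdc6, which licenses origins, at 2.04 ± 0.37, Mcm2 at 0.49 ± 0.15, Tyms (thymidylate synthase) at 0.15 ± 0.16 and the mitotic transcription factor Foxm1 at -0.19 ± 0.18. Top2a and Mcm6 each have another probe set that did not move the same way on both days.

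Because these genes moved together, the 250 bases before their annotated starts were searched for the elements known from cell-cycle promoters. These are CCAAT, bound by NF-Y, and the cell cycle homology region TTTGAA (CHR), bound by the MuvB complexes, on both strands. Among the 12 genes with the largest rise 4 were mitotic, and the windows of Cdk1, Top2a and Kif22 held both motifs, while that of Anln held neither. The 3 with matches were chosen to show where the motifs lie, so they say nothing of how common these are (RefSeq, GRCm38.p6, 5′ to 3′ on the gene's strand, matches in capitals). They lie at chr10:69352913-69353162, minus strand for Cdk1, chr11:99024190-99024439, minus strand for Top2a and chr7:127042421-127042670, minus strand for Kif22.

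Cdk1: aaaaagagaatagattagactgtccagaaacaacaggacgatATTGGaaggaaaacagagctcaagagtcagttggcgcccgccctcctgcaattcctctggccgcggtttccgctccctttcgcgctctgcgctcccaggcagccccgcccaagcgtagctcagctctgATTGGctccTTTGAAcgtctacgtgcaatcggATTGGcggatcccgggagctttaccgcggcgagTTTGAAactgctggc

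Top2a: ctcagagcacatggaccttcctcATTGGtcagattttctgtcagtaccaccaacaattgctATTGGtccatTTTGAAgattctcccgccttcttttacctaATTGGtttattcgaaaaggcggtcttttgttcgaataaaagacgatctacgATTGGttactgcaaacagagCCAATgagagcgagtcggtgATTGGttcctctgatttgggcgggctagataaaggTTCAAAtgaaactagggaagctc

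Kif22: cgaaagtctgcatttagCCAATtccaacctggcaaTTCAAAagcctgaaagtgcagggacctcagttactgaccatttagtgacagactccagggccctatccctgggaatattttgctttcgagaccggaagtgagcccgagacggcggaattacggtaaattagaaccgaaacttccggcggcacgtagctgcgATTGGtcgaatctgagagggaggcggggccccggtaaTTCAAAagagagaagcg

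In Cdk1 the CHR matches begin 71 and 15 bases before the start, in Top2a 179 and 23, and in Kif22 215 and 17. Each of these 3 has a CHR match close to the start and a CCAAT match upstream of it, which begins 48, 58 and 54 bases before the start. Of 22 mitosis genes with a promoter in the table, 9 (40.9%) held both motifs, against 3.87% of 10269 tested genes with a promoter and 5.73% of all 27025. CCAAT, with or without the other, was in 77.3% of mitosis promoters and in 35.7% of those of genes tested. Genes called higher held both motifs in 8.97%. A match of letters is a description of the window and not evidence that a factor was bound in these kidneys.

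Of 19 p53 targets and cell cycle arrest genes, 2 rose (10.5%, against 3.03% of all genes), namely Cdkn1a, which encodes the inhibitor p21 (1.22 ± 0.15), and the death receptor gene Eda2r (1.20 ± 0.15). Cdkn1a went from 477 to 1161 on day 1 and from 322 to 755 on day 3. The list median was 0.37, and Mdm2 and Zmat3, widely used p53 targets, differed by 0.063 and 0.095, neither called.

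Of 32 chemokine, receptor and adhesion genes, 14 rose (43.8%, against 3.03% of all genes), 1 fell (3.12%, against 0.762%) and 17 were not called (median 1.35). Ccl20, which attracts CCR6-bearing leukocytes, went from 5.73 to 283 on day 1 and from 5.57 to 317 on day 3 (3.87 ± 0.15, limma adjusted p = 0.0227). Its controls lay below the added 16, and the difference was 5.50 with a constant of 1 and 2.38 with 64. Cxcl1, a neutrophil attractant, went from 248 to 1759 on day 1 and from 183 to 2255 on day 3 (3.13 ± 0.23), and Cxcl2 from 46.0 to 304 on day 1 and from 24.2 to 494 on day 3 (3.02 ± 0.34). For all 3 genes the groups did not overlap, which follows largely from their choice by size. Ccl5 rose by 2.29, the monocyte attractant Ccl2 by 2.03 and the interferon-induced Cxcl10 by 1.87. The adhesion molecule genes Vcam1 and Icam1, which hold leukocytes on endothelium and tubule, rose by 1.96 and 1.20, and Cd44, a hyaluronan receptor, by 2.39. The gene that fell was Ccl28, an epithelial attractant of plasma cells, which went from 8240.3 to 2105 on day 1 and from 2473 to 928 on day 3 (-1.68 ± 0.20). The summed intensity of 25 macrophage markers moved with the chemokine genes, from 8758 at 0 min to 16110 at 60 min on day 1, and from 17820 to 66990 on day 3. Lyz1 and Lyz2 made up 37313 of the last value, and the other 23 markers summed to 6586 and 10320 on day 1 and 9410 and 29674 on day 3.

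Tnf itself was below the filter, at 9.49 and 18.4 at 0 min and 9.41 and 73.4 at 60 min, and its highest value was on the 60 min array of day 3. Its receptor genes Tnfrsf1a (0.87 ± 0.16, limma adjusted p = 0.0674) and Tnfrsf1b (0.83 ± 0.16, limma adjusted p = 0.0764) were higher on both days without passing the test. Tnfrsf1a lay at 992 and 751 at 0 min and 1667 and 1516 at 60 min. Of 22 TNF signalling components, 2 rose (9.09%, against 3.03% of all genes), and both belong to the necroptosis arm. Mlkl, the protein that ruptures the membrane, went from 69.0 to 268 on day 1 and from 85.1 to 282 on day 3 (1.65 ± 0.15), and Ripk3, the kinase that activates it, from 52.9 to 154 on day 1 and from 69.3 to 195 on day 3 (1.31 ± 0.15). Rhbdf2, a partner of the protease that sheds TNF, differed by 1.46 ± 0.30 and was not called.

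Genes that TNF and NF-kB are known to induce were higher as a group. Of 27 tested, 13 rose (48.1%, against 3.03% of all genes) and 0 fell (median 1.39). The chemokine genes Ccl20, Cxcl1 and Cxcl2 were among those that rose. Socs3, a feedback inhibitor of gp130 signalling, went from 291 to 1536 on day 1 and from 286 to 2058 on day 3 (2.56 ± 0.18). The NF-kB subunit gene Relb and the IkB-like Nfkbiz and Bcl3 rose by 1.39, 1.56 and 1.10. The feedback inhibitor genes Nfkbia and Tnfaip3 differed by 0.58 and 0.68, and the antioxidant target Sod2 by -0.49, none of them called. In 21 promoters of this list, an NF-kB motif (GGGA, any base, then TTTCC, on either strand) was found in 4 (19.0%), against 0.351% of genes tested, and the AP-1 motif TGANTCA in 6 (28.6%), against 4.39%. The window of Ccl20 matched neither string, and other forms of these sites were not searched.

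Among 15 interleukin and gp130 cytokine genes, 4 rose (26.7%, against 3.03% of all genes) and 0 fell (median 0.76). Besides Socs3 these were Clcf1, a gp130 ligand (from 95.6 to 433 on day 1 and from 82.0 to 821 on day 3, 2.55 ± 0.30), Il1f6, the epithelial interleukin-36 alpha (from 62.2 to 389 on day 1 and from 57.4 to 444 on day 3, 2.51 ± 0.16), and Lif (1.14 ± 0.17). Lif has a probe set that disagreed with the one used. Il1b differed by 0.65 ± 0.34, and Il6, which lay below the filter, at 11.6 and 33.9 at 0 min and 50.0 and 139 at 60 min.

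Immediate early genes are known for brief induction, and some were higher days after reperfusion. Of 22 tested, 5 rose (22.7%, against 3.03% of all genes) and 0 fell (median 1.18). Atf3, a stress-induced repressor, went from 104 to 431 on day 1 and from 130.0 to 783 on day 3 (2.18 ± 0.20). Egr1 rose by 1.89, the AP-1 subunits Fos and Jun by 1.73 and 1.26, and Klf6 by 1.64. Egr2 (1.98 ± 0.35), Fosl1 (1.96 ± 0.32) and Myc (1.80 ± 0.33) differed by as much but spread more between the days and were not called. An AP-1 match stands in the promoter of Sprr2f, the gene with the largest mean rise, at chr3:92364937-92365186, plus strand (capitals mark AP-1 TGAGTCA and 2 CCAAT matches):

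Sprr2f: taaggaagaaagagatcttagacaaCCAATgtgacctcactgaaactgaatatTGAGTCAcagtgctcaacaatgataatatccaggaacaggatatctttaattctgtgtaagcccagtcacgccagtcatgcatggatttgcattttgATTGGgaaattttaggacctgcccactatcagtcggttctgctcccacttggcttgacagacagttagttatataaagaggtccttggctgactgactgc

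The AP-1 match begins 197 bases before the start. Of 21 injury markers with a promoter in the table, 4 (19.0%) held TGANTCA within 250 bases, against 4.39% of genes tested. The windows of Havcr1, Lcn2 and Krt20, the other injury markers among the 12 genes with the largest rise, held none. That of Hpd, among the 12 with the largest fall, held 1. The motif was not particular to risen genes. It stood in 6.09% of genes called higher and 5.26% of those called lower. It was also in 12.9% of promoters of the proximal tubule enzymes, 5.56% for proximal transporters, and 0% for mitosis, replication and loop of Henle lists.

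Acute phase and complement genes gave 3 calls of 19, all higher (15.8%, against 3.03% of all genes, median 0.93). They were the protease inhibitor genes Serpina10 (from 278 to 1539 on day 1 and from 215 to 1185 on day 3, 2.39 ± 0.15) and Serpina3n (1.39 ± 0.17), and Cfi, complement factor I (1.95 ± 0.22). Interferon-stimulated genes gave 1 of 22 (4.55%, near the share of all genes), the GTPase gene Gbp3 (1.58 ± 0.20), with a list median of 0.62.

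Matrix genes were higher on both days. Of 29 extracellular matrix and myofibroblast genes, 14 rose (48.3%, against 3.03% of all genes) and 0 fell. The list median was 1.27 at day 1 and 1.39 at day 3. Timp1 went from 159 to 1368 on day 1 and from 281 to 1339 on day 3 (2.59 ± 0.24). Postn, the matricellular protein periostin, went from 176 to 1263 on day 1 and from 517 to 2500.3 on day 3 (2.49 ± 0.19), and Tnc (tenascin-C) from 186 to 958 on day 1 and from 204 to 962 on day 3 (2.21 ± 0.15). Tagln, an actin-binding protein of smooth muscle and myofibroblasts, rose by 2.23, and Acta2, the smooth muscle actin, by 1.42, though only 1 of the 3 probe sets of Acta2 was higher on both days. The collagen genes Col3a1 and Col1a2 rose by 2.16 and 1.76, whereas Col1a1 went from 131 to 1326 on day 1 and from 535 to 1395 on day 3 and was not called (2.27 ± 0.46). The matrix proteases Mmp14 and Mmp2 rose by 1.55 and 1.18.

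Of 10 markers of fibroblasts and pericytes, the resident cells that make matrix, 1 rose (10%), Pdgfrb, the PDGF receptor of pericytes (1.10 ± 0.15), and the list median was 0.43. Among 29 growth factor genes 2 rose (6.9%) and 1 fell (3.45%), against 3.03% and 0.762% of all genes. Those that rose were Pdgfb (1.24 ± 0.15) and Tgfb1 (1.10 ± 0.15, with a disagreeing probe set). The gene that fell was Egf, which the distal tubule makes. It went from 19971 to 6409 on day 1 and from 23566 to 5356 on day 3 (-1.89 ± 0.19).

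Cytoskeleton genes formed another raised group. Of 27, 11 rose (40.7%, against 3.03% of all genes) and 0 fell (median 1.14). The actin-capping gene Capg went from 481 to 1952 on day 1 and from 407 to 1998 on day 3 (2.12 ± 0.16), and Tubb2b, a tubulin better known from neurons, from 339 to 1756 on day 1 and from 419 to 1439.6 on day 3 (2.03 ± 0.20). Tubb6 and Tubb5, other tubulins, rose by 1.84 and 1.67, Flna (filamin A) by 1.60 and Tpm2 (tropomyosin) by 1.56. Capg, Tubb6 and Tpm2 each have a probe set that disagreed. The actin genes Actb (-0.12) and Actg1 (0.035) were not called.

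**Figure D3:**
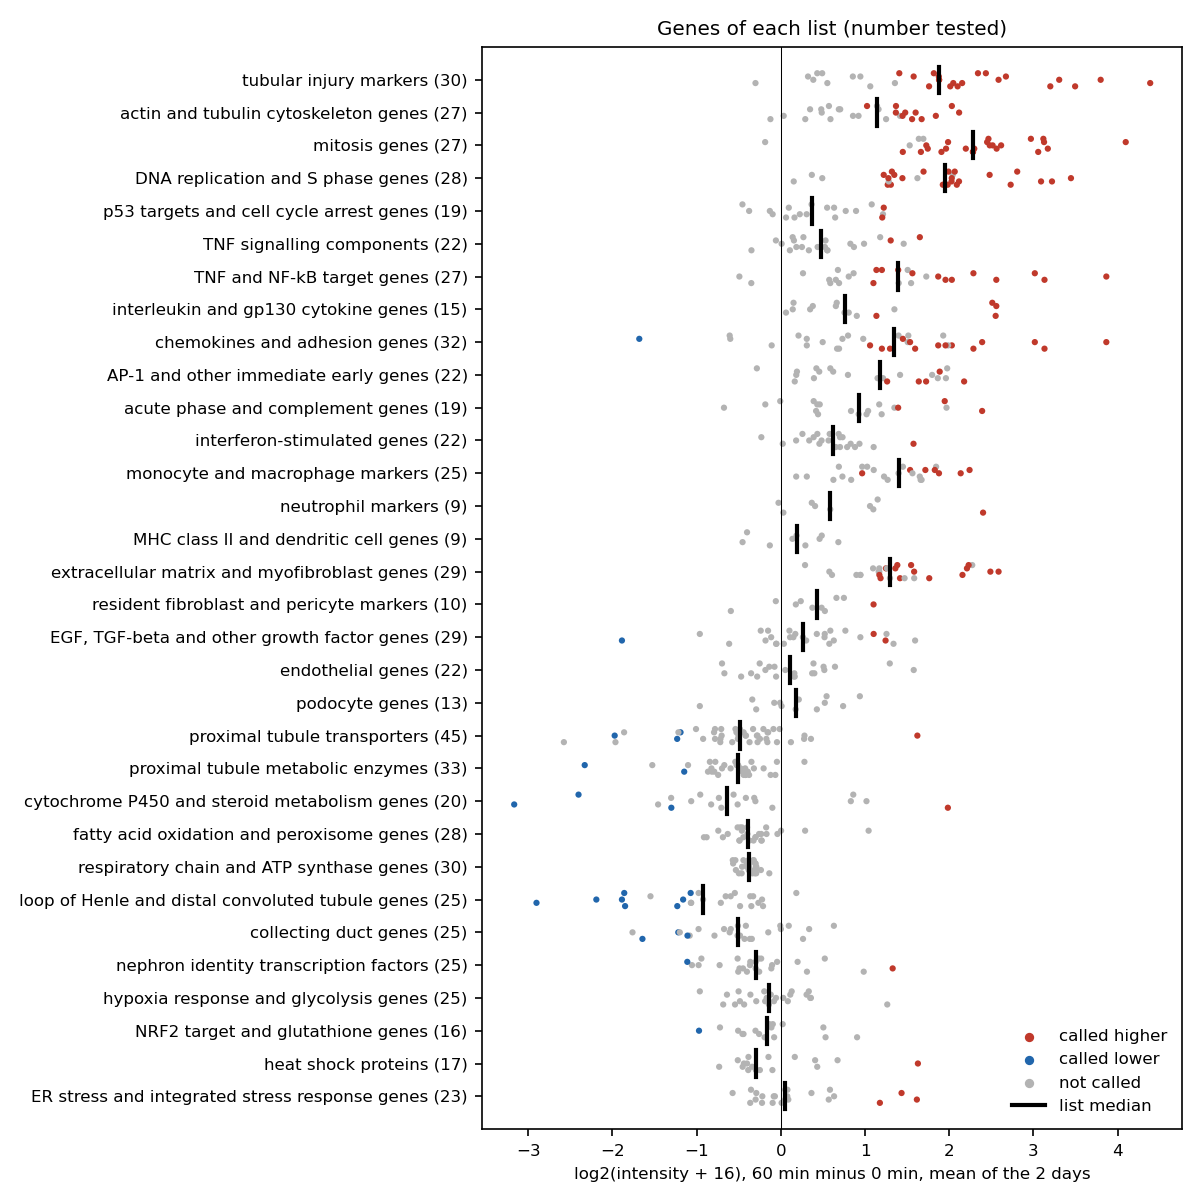
Each point is a gene of the list named at left (number tested in brackets), placed by its log2(intensity + 16) difference, 60 min minus 0 min, averaged over both days; red was called higher, blue called lower, grey not called, and the black bar is the list median. Among the lists drawn, medians run from 2.28 for mitosis genes to -0.92 for genes of the loop of Henle and distal convoluted tubule, and the respiratory chain genes form a narrow cluster below 0 with no call.

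Macrophage markers had a larger median at day 3 than at day 1, a difference that was not tested. Of 25 monocyte and macrophage markers, 7 rose (28%, against 3.03% of all genes) and 0 fell. The list median was 0.65 at day 1 and 1.84 at day 3. Cd68, the lysosomal macrophage marker, went from 121 to 560.1 on day 1 and from 195 to 1105 on day 3 (2.24 ± 0.17). Cd14, a receptor for bacterial lipopolysaccharide, went from 783 to 2719 on day 1 and from 476 to 2762 on day 3 (2.14 ± 0.23). Arg1, the arginase of repair-type macrophages and of tubule, rose by 1.88, the scavenger receptor Msr1 by 1.83, the lysozyme gene Lyz1 by 1.72 (1 of 3 probe sets disagreed), Fcgr1 by 1.54 and Itgax by 0.97. The defining markers Adgre1 (0.11 at day 1 and 1.14 at day 3) and Csf1r (-0.33 at day 1 and 0.70 at day 3) were not called. Cd163 and Trem2 lay below the filter. These markers moved with the chemokine, adhesion and matrix genes, and their part in those results was not tested.

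Of 9 neutrophil markers 1 rose (11.1%, against 3.03% of all genes). It was the lectin gene Clec4d (from 21.9 to 126 on day 1 and from 44.8 to 439 on day 3, 2.40 ± 0.28). The summed intensity of the 9 markers went from 1148 to 1767 on day 1 and from 1291 to 2490 on day 3. The granule genes Mpo and Ltf lay below the filter, and S100a8 differed by 0.59 ± 0.15. Of 4 lymphocyte markers tested 0 were called by limma (4 at an unadjusted p under 0.05, median -0.53), and of 16 on the array the other 12, Cd3e and Cd4 among them, lay below the filter. Of 9 MHC class II and dendritic cell genes 0 were called (3 unadjusted). Their median was -0.66 at day 1 and 0.54 at day 3, and H2-Aa, a class II chain, went from 2024 to 768 on day 1 and from 2252 to 3372 on day 3.

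On the falling side, genes of the loop of Henle and distal convoluted tubule had the lowest median of the nephron segments. Of 25, 8 fell and 0 rose (median -0.92), where 0.762% of all genes were called lower. Pvalb, the calcium-binding parvalbumin of the early distal convoluted tubule, went from 2042 to 374 on day 1 and from 2062 to 181 on day 3 (-2.90 ± 0.28, limma adjusted p = 0.0271). Calb1, the calbindin that carries calcium through distal cells, went from 13041 to 3788 on day 1 and from 13054 to 2139.9 on day 3 (-2.19 ± 0.24), and the sodium-calcium exchanger gene Slc8a1 from 1623 to 534 on day 1 and from 1882 to 414 on day 3 (-1.86 ± 0.20). Together with Trpm6, the magnesium channel (-1.16 ± 0.17), the genes that fell include several of distal calcium and magnesium transport. In each of Pvalb, Calb1 and Slc8a1 both 60 min arrays lay below both 0 min arrays, which follows largely from their choice by size. Tmem207 fell by 1.85 (log2), the prostaglandin receptor Ptger3 fell by 1.23 and the phosphatase inhibitor Ppp1r1a fell by 1.07. Slc12a3, the thiazide-sensitive transporter, lay at 4880.3 and 4575 at 0 min and 2897 and 888 at 60 min and was not called (-1.55 ± 0.41, limma adjusted p = 0.122). Umod (-0.33 ± 0.15, limma adjusted p = 0.259) and Slc12a1 (-0.92 ± 0.15, limma adjusted p = 0.0590) were lower on both days without passing the test. Slc8a1 has a probe set that disagreed.

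Collecting duct genes gave 3 calls of 25, all lower (12%, against 0.762% of all genes, median -0.51). Prom2, a membrane protein of distal epithelia, went from 116 to 33.3 on day 1 and from 113 to 19.5 on day 3 (-1.64 ± 0.18), though another of its probe sets disagreed. Aqp4, a basolateral water channel of principal cells, fell by 1.22 (log2), and Slc26a4, the chloride-bicarbonate exchanger pendrin of intercalated cells, fell by 1.11. The principal cell channel Aqp2 differed by -0.071 at day 1 and -0.66 at day 3 and was not called.

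Proximal tubule genes had smaller differences at the median. Of 45 transporters 3 fell (6.67%, against 0.762% of all genes) and 1 rose (2.22%, against 3.03%), with a median of -0.48. On both days 30 of the 45 were lower, where 31.7% of all genes were. All 3 that fell are organic anion transporters of the Slc22 family. Slc22a26 went from 483 to 136 on day 1 and from 434 to 79.9 on day 3 (-1.97 ± 0.19), Slc22a8, which encodes OAT3, from 5978 to 2439 on day 1 and from 5619 to 2484 on day 3 (-1.23 ± 0.15), and Slc22a30 fell by 1.19 (log2). The gene that rose was Slc7a12, an amino acid transporter (from 157 to 615 on day 1 and from 219 to 597 on day 3, 1.62 ± 0.19). Slc34a1 lay below its control on both days by about the same amount (-0.51 at day 1 and -0.51 at day 3) with an adjusted p of 0.137 from limma. Lrp2 (-0.72 ± 0.15, limma adjusted p = 0.0845) and Cubn (-0.53 ± 0.15), the endocytic receptors, were likewise not called.

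Of 33 metabolic enzyme genes of the proximal tubule 2 fell (6.06%, against 0.762% of all genes) and 0 rose (median -0.51). On both days 28 of them were lower, where 31.7% of all genes were. Hpd, which degrades tyrosine, went from 5147 to 991 on day 1 and from 1017 to 194 on day 3 (-2.33 ± 0.15). Its 0 min value at day 3 barely exceeded the 60 min value of day 1. The glucuronosyltransferase-like gene Ugt3a1 fell by 1.15 (log2). Gluconeogenic Pck1 (-0.48 ± 0.15), Fbp1 (-0.44 ± 0.15) and G6pc (-0.79 ± 0.15) were not called.

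The gene with the lowest mean difference belongs to steroid and P450 metabolism. Cyp7b1, an oxysterol hydroxylase, went from 13732 to 2373 on day 1 and from 12608 to 887 on day 3 (-3.16 ± 0.34, limma adjusted p = 0.0295). Cyp2d9, a male-biased P450, went from 10865 to 2314 on day 1 and from 2666 to 433 on day 3 (-2.40 ± 0.17), and both its 0 min and its 60 min value were lower at day 3. Cyp51, of cholesterol synthesis, fell by 1.30 (log2). Of 20 genes 3 fell (15%, against 0.762% of all genes) and 1 rose (5%, against 3.03%). The one that rose was the aldo-keto reductase gene Akr1b8 (from 276 to 956 on day 1 and from 218 to 1081 on day 3, 1.98 ± 0.19). Cyp7b1 has another probe set that did not move the same way on both days.

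Most genes of energy metabolism on the lists were lower on both days, and none was called. Of 30 respiratory chain and ATP synthase genes 0 were called by limma (8 at an unadjusted p under 0.05), yet 29 were lower on both days, where 31.7% of all genes were. Their differences ran from -0.57 to -0.14 with a median of -0.38, which was -0.28 at day 1 and -0.47 at day 3. Sdha, of complex II, lay at 14919 and 12910.0 at 0 min and 10502 and 8363 at 60 min (-0.57 ± 0.15, limma adjusted p = 0.122). Of 28 fatty acid oxidation and peroxisome genes 0 were called (13 unadjusted) and 24 were lower on both days (median -0.38). Ehhadh, a peroxisomal enzyme, differed by -0.91 ± 0.16, and Ppargc1a, the coactivator of mitochondrial genes, by -0.69 ± 0.16. The member with the largest difference was Angptl4, a lipoprotein lipase inhibitor induced by fatty acids, which was higher on both days and not called (1.04 ± 0.16, limma adjusted p = 0.0518). Under a robust variance trend 18 respiratory chain and 11 fatty acid oxidation genes were called.

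Transcription factors of nephron identity gave 1 call in each direction of 25 (median -0.30). That is 4% each way, against 3.03% of all genes called higher and 0.762% called lower. Sox4, active in developing nephron, rose by 1.33, with a disagreeing probe set, and Sim1 fell by 1.11 (log2). Hnf4a, which maintains proximal tubule genes, lay at 13482 and 13682 at 0 min and 9678 and 9455 at 60 min and was not called (-0.50 ± 0.15).

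Among the 12 genes with the largest fall were 3 that encode antibody chains or their joining chain. No immunoglobulin list was tested. Jchain, the chain that joins IgA and IgM into polymers, went from 4182 to 592 on day 1 and from 2534 to 379 on day 3 (-2.74 ± 0.15, limma adjusted p = 0.0227). Igha, the IgA heavy chain, went from 13435 to 2395 on day 1 and from 10885 to 1587 on day 3 (-2.62 ± 0.16). The 2 days gave like sizes, -2.79 at day 1 and -2.69 at day 3 for Jchain and -2.48 at day 1 and -2.77 at day 3 for Igha. Igkv9-120, a kappa variable segment, went from 431 to 41.8 on day 1 and from 178 to 35.5 on day 3 (-2.43 ± 0.29), but kappa segments are a multigene family whose probe sets can share transcripts, so their identity is uncertain, and another of its probe sets disagreed. Igkv8-30 and Pigr were chosen after their values were seen and add no support. Igkv8-30 fell by 2.21 (log2), and Pigr, the epithelial receptor that carries polymeric IgA into the lumen, went from 6557 to 3006 on day 1 and from 2767 to 1093 on day 3 (-1.22 ± 0.15), with the groups apart only within a day. The IgM heavy chain gene Ighm (-1.09 ± 0.20) and the plasma cell gene Mzb1 (-0.70 ± 0.15) were not called. Plasma cells and their RNA content were not measured apart.

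Other genes named by the size of their fall were C8a, a chain of the membrane attack complex (from 989 to 206 on day 1 and from 838 to 119.7 on day 3, -2.41 ± 0.19), Slc16a7, the monocarboxylate transporter MCT2 (from 2579.7 to 647 on day 1 and from 1982 to 491 on day 3, -1.97 ± 0.15), and Asb11, an adaptor of ubiquitin ligases (-2.01 ± 0.15). Vstm2a (-2.07 ± 0.18) and the opposite-strand transcript Prdm16os (-2.01 ± 0.17) were dim at 60 min, Vstm2a going from 299.8 to 47.8 on day 1 and from 152 to 30.8 on day 3 and Prdm16os from 325 to 58.4 on day 1 and from 203 to 46.1 on day 3. All were called lower.

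Counts for stress programmes stand against 3.03% of all genes called higher and 0.762% called lower. Of 25 hypoxia response and glycolysis genes 0 were called by limma (6 at an unadjusted p under 0.05, median -0.14), with Hk2 at 1.26 ± 0.30 and Vegfa at -0.96 ± 0.18. Of 16 NRF2 target genes 1 fell (6.25%), Osgin1 (-0.97 ± 0.15), with a median of -0.16. Of 17 heat shock genes 1 rose (5.88%), the small chaperone gene Hspb1 (from 2005 to 5057 on day 1 and from 1712 to 6561 on day 3, 1.63 ± 0.20), while the median was -0.30. Of 23 genes of ER stress and the integrated stress response 3 rose (13%). They were the amino acid and folate enzymes Phgdh (1.62 ± 0.16), Mthfd2 (1.43 ± 0.15) and Asns (1.18 ± 0.18), and the chaperone Hspa5 differed by -0.22 ± 0.15. Of 19 genes of NAD synthesis, arginase and polyamines, Arg1 rose and Afmid, of the kynurenine route, fell (-1.16 ± 0.15). Of 16 clock genes 0 were called (4 unadjusted, median -0.14), and of 17 ribosomal protein genes 0 (2 unadjusted, median 0.15).

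Glomerular and vascular genes gave no call. Of 13 podocyte genes 0 passed (5 at an unadjusted p under 0.05 from limma, median 0.18) and of 22 endothelial genes 0 (8 unadjusted, median 0.10, and below 0 with median centring). Markers of neighbouring tissue were checked because the pedicle lies beside fat and adrenal gland. Of the tested markers of red cells, adrenal cortex and skeletal muscle 0 of 2, 0 of 2 and 0 of 3 were called by limma (1, 0 and 3 at an unadjusted p under 0.05). Of 7 fat markers 1 rose (14.3%, against 3.03% of all genes), namely Ucp1 (from 153 to 394 on day 1 and from 189 to 485 on day 3), and no other was called. Of 4 liver and pancreas markers 1 fell (25%, against 0.762%), namely Ttr (from 133 to 54.9 on day 1 and from 101 to 20.5 on day 3). The sex-linked genes used as a label check gave 0 calls of 4 (1 unadjusted).

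In some genes the 2 days gave unlike differences. The 2 daily differences lay at least 2-fold apart in 685 genes, with day 3 above day 1 in 451 (3.54%) and below it in 234 (1.84%). With 1 array per clamp time and day this contrast has no test. Median centring gave 308 above and 385 below, and quantile normalization 334 and 298, so the lean toward day 3 depended on scaling. Tgfb3 went from 62.1 to 46.3 on day 1 and from 2.43 to 132 on day 3, so the low value was the 0 min array of day 3. Oit1 had the same shape, from 79.3 to 72.2 on day 1 and from 7.38 to 163 on day 3. Tnfaip8l2, a restraint on immune signalling, went from 95.1 to 12.3 on day 1 and from 98.6 to 260.5 on day 3, and there the 60 min array of day 1 stood apart. Fcnb, a lectin of myeloid cells, went from 112 to 15.2 on day 1 and from 12.4 to 59.0 on day 3. Vsig2 went from 103 to 8.55 on day 1 and from 35.6 to 94.9 on day 3. Tgfb3, Oit1, Tnfaip8l2, Fcnb and Vsig2 each had at least 1 array below the added 16. The size of their gap between days therefore depends on the constant, and noise in dim probe sets was not told apart from a response.

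In the other direction, Slc22a7, which encodes the organic anion transporter OAT2, went from 2079 to 1116 on day 1 and from 8196 to 412 on day 3. Its control was higher at day 3 than at day 1, and the clamped kidney lower. Bcat1, a branched-chain amino acid transaminase, went from 766 to 2381 on day 1 and from 4765 to 1217 on day 3, and Akr1c18, a progesterone-reducing enzyme, from 262 to 1395 on day 1 and from 5296 to 3300.1 on day 3. For Akr1c18 the 0 min array of day 1 was the low one. Alas2, the haem enzyme of red cell precursors, went from 136 to 142 on day 1 and from 597 to 73.9 on day 3, and Wipf3 from 22.1 to 173 on day 1 and from 123 to 78.7 on day 3. Each of these patterns rests on single arrays and has no replicate check.

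**Figure D4:**
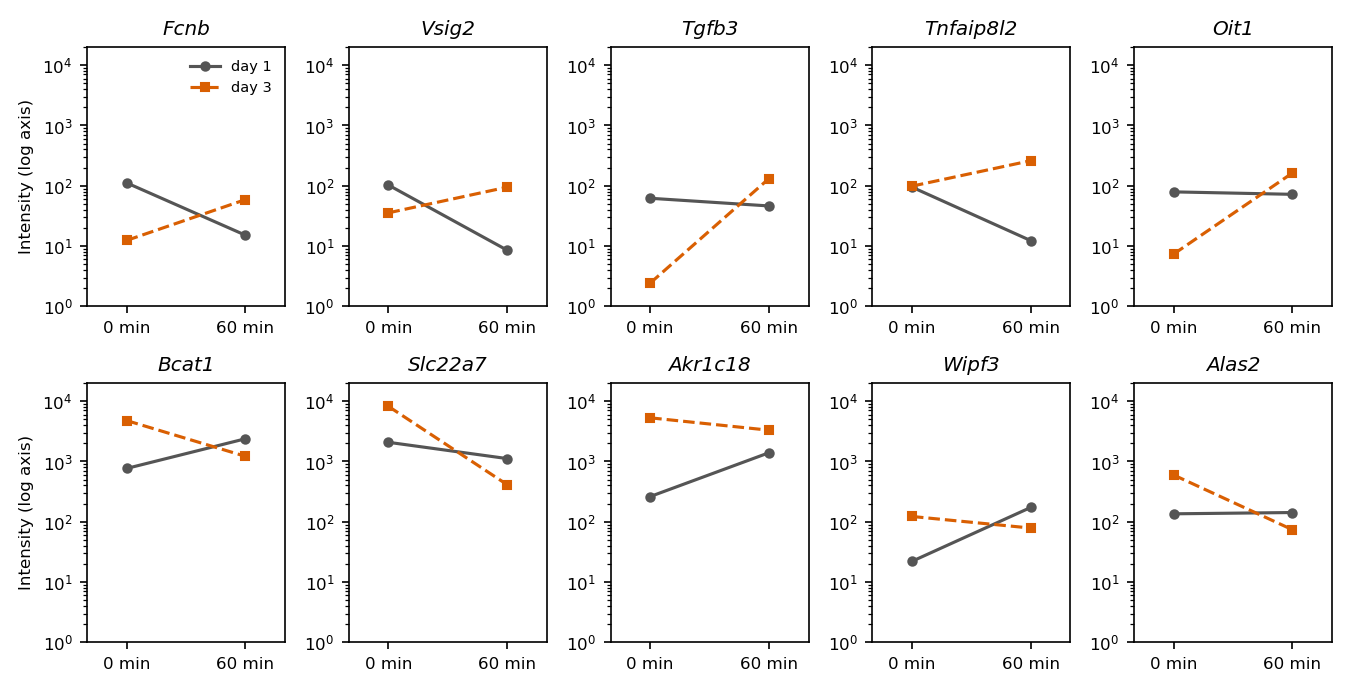
Intensity (log axis) at 0 and 60 min for the 5 genes whose day 3 difference lay farthest above (top row) and farthest below (bottom row) that of day 1; circles and solid lines are day 1, squares and dashed lines day 3, 1 array per point. In Tgfb3 and Oit1 the 0 min array of day 3 is the low point, and in Akr1c18 the 0 min array of day 1. Each gene of the top row has at least 1 array below the added 16.

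Genes with several probe sets allow a comparison within the array. Of 483 called genes 269 had more than 1 probe set, and in 189 of these (70.3%) every probe set lay in the called direction on both days. That count includes the probe set that made the call. The share over all genes with several probe sets was not counted, so 70.3% has no background beside it. Of the genes chosen by size, Top2a, Cyp7b1 and Igkv9-120 had one that did not.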

How the data were processed

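The deposited values are linear array intensities, with 1 value for each probe set. Per the submitters' processing notes the authors used Affymetrix Expression Console. Version, summary algorithm and genome build: not given in the sources used here. The mean intensity after trimming 2% at each end was 500.003 on every array, so arrays share a scaling target. Per the labels' protocols, biotin-labelled cRNA was made from Trizol-extracted RNA with a 3' IVT kit. From the deposited intensities, log2(intensity + 16) was computed. Of 45101 probe sets 34945 have 1 symbol, 932 several and 9160 none in the platform annotation. Each of 18193 genes took its brightest probe set, and genes under the 40th percentile of level (log2 6.01) were dropped, leaving 12735. limma 3.58.1 (R 4.3.3) fitted clamp plus day to the 4 arrays, with Benjamini-Hochberg adjustment; its prior held 3.43 degrees of freedom, beside 1 residual. The day block follows the labels, which tie each array to a collection day. The fit was run on simulated data that met its own assumptions, which cannot show whether the calls made here are sound. Precision is limited by the number of arrays.

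Genes were named by rule. They are the 12 per direction with the largest smaller-of-both-days difference and an intensity of at least 100, the 5 at each end of the change between days, up to 5 per list, and 10 fixed genes, with predicted genes passed over. Others were named after their values were seen. The members and the 42 lists (965 symbols, 865 on the array, 789 tested) were chosen with earlier results of these data known, so list counts are descriptions beside the share over all genes.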

Additional observations from a re-analysis of the deposited data

Results flagged for a closer look

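Among the named genes, 9 had differences of opposite sign on the 2 days, each at least 0.5 on the log2 scale. The difference between the days was not tested, because each clamp time and day has 1 array. Higher at day 1 and lower at day 3 were Bcat1 (1.62 at day 1 and -1.96 at day 3), Akr1c18 (2.34 at day 1 and -0.68 at day 3), Wipf3 (2.31 at day 1 and -0.55 at day 3) and the clock output gene Dbp (0.59 at day 1 and -1.59 at day 3). Lower at day 1 and higher at day 3 were Fcnb (-2.03 at day 1 and 1.40 at day 3), Vsig2 (-2.27 at day 1 and 1.10 at day 3), Tnfaip8l2 (-1.97 at day 1 and 1.27 at day 3), and the MHC class II genes H2-Aa (-1.38 at day 1 and 0.58 at day 3) and Cd74 (-0.70 at day 1 and 0.98 at day 3). Genes were partly chosen for this pattern, so it is a description. Fcnb, Vsig2 and Tnfaip8l2 each had at least 1 array below the added 16, so the size of their differences depends on the constant.

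Probe sets with no gene symbol took no part in the comparisons. Of 2580 of them past the filter and bright on at least 1 array, 35 passed 2-fold upward on both days (1.36%) and 12 downward (0.466%). Over all genes tested the shares were 3.01% and 0.715%. Those rest on 1 probe set per gene with no limit on brightness, so the bases differ. Groups of 2 arrays are too small for a check of outlying samples.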

How the results depend on the processing

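The count of 483 calls moved with the treatment of spread, the filter, the added constant and the centring. Without the replicate block (day left out of the fit) limma called 1 gene, with all 6 arrays 0 (2718 genes at an unadjusted p under 0.05), without variance moderation 0 (1298 unadjusted), and under a robust trend 1748. Leaving out 1 array of 60 or 0 min was possible only in the 6-array fit and called 0 to 0 genes (1089 to 2164 unadjusted). No filter called 0 (2895 unadjusted), a filter at the 60th percentile 1134, a constant of 1 81, a constant of 64 1058, and median centring 1754. Quantile normalization called 333, 332 of them shared, and was within 1.5 times, as were averaged probe sets (544) and levels over 4 arrays (500). The 474 genes 2-fold on both days ranged from 326 to 601. The 685 genes with daily differences 2-fold apart became 319 with a constant of 64, 2215 with no filter and 263 at the 60th percentile. Of 286 named genes tested, 259 kept their direction in each of the 16 settings that tested them, as did all 146 called ones. The filter at the 60th percentile tested only 122 of the 146. Several settings could not turn a sign. Leaving out the day block, using all 6 arrays, a robust trend and no moderation leave each gene's difference as it was. The median over all genes was 0.034 in each. A changed filter drops or adds genes without changing their values. A changed constant cannot turn a gene with the same sign on both days. Of the 146 called genes, 125 stayed called under quantile normalization and 41 with a constant of 1. Of 42 list medians 33 kept their sign throughout, each day alone included. With quantile normalization Kap came to 0 and the sign turned for Cyp21a1 (-0.0991). With median centring the sign turned for Cyp21a1 (-0.0803). With probe sets averaged the sign turned for Cyp21a1 (-0.30), Ckm (-0.0734) and H2-Ab1 (0.00782). In the 6-array fit without the 60 min array of day 1 the sign turned for Fcnb (0.77), Vsig2 (0.81), Tnfaip8l2 (1.31), Cd209a (0.14), H2-Aa (0.0815), Car3 (0.00121), Kdm5d (-0.0114) and H2-Ab1 (0.28). Without the 60 min array of day 3 the sign turned for Bcat1 (1.14), Cbr3 (-0.0334), Gclc (0.00896), Hspa1a (0.27), Dbp (0.46), Star (0.26) and Cd74 (-0.33). Without the 0 min array of day 1 the sign turned for Fcnb (1.17), Vsig2 (0.55), Tnfaip8l2 (0.42), Akr1c18 (-0.96), Wipf3 (-0.81), Nt5e (0.0762), Cd209a (0.0194), H2-Aa (0.59), Hspa1a (0.33), Kdm5d (-0.16), Uty (-0.13) and H2-Ab1 (0.25). Without the 0 min array of day 3 the sign turned for Tgfb3 (-0.0259), Oit1 (-0.0449), Bcat1 (1.20), Inhbb (-0.0427), Sox11 (-0.0213), Dbp (0.17), Cyp21a1 (-0.16), Cela1 (0.11) and Cd74 (-0.65). The causes were not tested.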

Other observations

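Of the 483 called genes, 306 stood in no list and were not named above. Those given here were chosen after their values were seen. Slc34a2, a phosphate transporter better known from lung and gut, went from 281 to 1043 on day 1 and from 204 to 795 on day 3 (1.86 ± 0.15), while the proximal tubule's own Slc34a1 was not called. Runx1, a transcription factor of blood cells that is also reported in injured epithelium, went from 29.3 to 156 on day 1 and from 75.6 to 397 on day 3 (2.05 ± 0.16), but only 3 of the 6 probe sets of Runx1 were higher on both days. Aoc1, a diamine oxidase, went from 234 to 906 on day 1 and from 341 to 1817 on day 3 (2.12 ± 0.18), and the tight junction gene Cldn1 from 408 to 1221 on day 1 and from 512 to 2246 on day 3 (1.82 ± 0.20). Several chromosome and DNA repair genes outside the lists rose too. Fignl1, of homologous recombination, rose by 3.01, the chromatin remodeller Hells by 2.88, and the condensin subunits Smc2 and Ncaph by 2.19 and 2.09. The receptors for complement fragments, C5ar1 and C3ar1, rose by 1.56 and 1.74. Cldn1 and Smc2 each have a probe set that disagreed.

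Among genes of no list that fell, some are known from the distal nephron. Kcnj10, a basolateral potassium channel of the distal convoluted tubule, went from 952 to 436 on day 1 and from 632 to 238 on day 3 (-1.22 ± 0.16). Oxgr1, the 2-oxoglutarate receptor of intercalated cells, fell by 1.13 (log2). Gcgr, the glucagon receptor, fell by 1.31, and Slco4c1, an organic anion transporter of proximal tubule, fell by 1.69. The sulphur amino acid enzymes Cbs and Gnmt had differences of -1.25 and -1.67, and the epoxide hydrolase gene Ephx2 of -1.07, all called lower.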
